A study of Triticum urartu with 18 samples.

Results

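The 11 genes described here are the individually named storage regulators in an expression table of Triticum urartu, a diploid wild wheat and the source of the A genome of bread wheat. They are the genes whose annotation starts with "Tu", other than Tuglup3, and they make up 11 of 27121 genes in the table and 11 of the 1160 that carry an annotation. The choice used the annotation and no measured value. They are TuWPBF (TRIUR3_33098), TuSPA (TRIUR3_18984), TuOHP1 (TRIUR3_24233), TuGAMYB (TRIUR3_27104), TuFUS3 (TRIUR3_32813), TuQM (TRIUR3_30652), TuGCN5 (TRIUR3_27913), TuPdi (TRIUR3_24343), Tuglup2 (TRIUR3_21622), Tuglup4 (TRIUR3_25319) and Tuglup6 (TRIUR3_13259). By their namesakes in wheat, maize, Arabidopsis and rice, 5 are DNA-binding factors, TuQM and TuGCN5 are factors that work with them, and 4 fold or transport storage proteins and are not regulators of transcription.

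Wild-type, untreated plants of the line PI 428198 were used throughout. Endosperm, freed of embryo, aleurone, seed coat and pericarp, was taken at 5, 10, 15, 20 and 25 days post anthesis (DPA), and flag leaf at 10 DPA. Each of the 6 groups had 3 libraries from independent biological replicates, read by RNA-Seq on an Illumina HiSeq. Values are FPKM, a fragment count divided by transcript length and by the library's mapped fragments. Column headings tie a library to its group and not to a sample, so library numbers below are column numbers.

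Cereal prolamins, the gliadins and glutenins of wheat, are made in the starchy endosperm during grain filling. Their promoters carry short motifs that endosperm factors bind: Dof proteins bind the prolamin box, bZIP proteins of the Opaque2 type bind the GCN4 motif, and GAMYB, a MYB protein, and FUS3, a B3 protein, belong to the same network in barley. The proteins are folded in the endoplasmic reticulum, where disulfide isomerase acts, and carried on through the secretory system. In rice the glup mutants, which pile up glutelin precursors, mark steps of that transport.

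The composition of the libraries changed with stage. The 12 most abundant genes without an annotation took 24.0% to 32.2% of the FPKM sum at 5 DPA, 45.9% to 47.3% at 10 DPA, 53.3% to 54.7% at 15 DPA, 83.2% to 86.1% at 20 DPA and 44.5% to 85.4% at 25 DPA. In leaf they took 67.9%, 43.4% and 39.9% in libraries 1, 2 and 3. At 20 DPA 9328 to 11010 genes were above 0. Library 1 of 25 DPA resembled them, with 10644 genes above 0 and 85.4% of its FPKM in those 12 genes, against 17135 and 17237 genes in libraries 2 and 3. Contrasts with 25 DPA rest partly on that library and are given with and without it. The table holds no read counts, so absolute depth is unknown. Steps in the lowest values placed relative depth between 0.319 (leaf library 1) and 1.04 of that of 10 DPA library 1. The summed 21 gliadin and glutenin genes, taken as the check of the endosperm label, held 0.00307% to 0.0129% of the FPKM sum at 5 DPA, a mean of 17.5% ± 0.444 at 10 DPA and 21.1% ± 0.848 at 15 DPA (SD over 3 libraries), 0.892% to 1.28% at 20 DPA, and 0.382%, 12.1% and 1.99% at 25 DPA, but at most 0.00102% in leaf. The 84 genes with a leaf mean of at least 1000 FPKM and at least 10 times that of 15 DPA endosperm took 4.24% to 7.20% at 5 DPA, 0.852% to 1.25% at 10 DPA and at most 0.209% later. Whether tissue other than starchy endosperm had a part in any result at 5 DPA was not tested. In these bulk libraries fewer cells of a type and less RNA per cell cannot be told apart.

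Since library composition changed with stage, log2 changes are given from the values as deposited and also after median-ratio scaling. Such scaling gives the genes above 0 in every library of the fit a common median ratio. As deposited, the median log2 change of all genes tested was -1.23 for 10 against 5 DPA, -0.65 for 15 against 10, -1.09 for 20 against 15, 1.00 for 25 against 20 and -1.99 for 25 against 5 DPA. After scaling these medians were -0.17, -0.18, -0.23, 0.12 and -0.43. For endosperm against leaf they were -0.01 as deposited and 0.26 after scaling. A gene was called when limma's Benjamini-Hochberg adjusted p over all genes tested was under 0.05 and the log2 change of FPKM + 1 was at least 1 in size. All 11 genes passed the filter on low values in the endosperm fit, and 10 did in the leaf fit, where TuFUS3 was not tested.

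TuWPBF, named for the wheat Dof protein that binds the prolamin box, had the widest range of stage means among the 5 DNA-binding factors. It stood at 11.8, 9.78 and 14.8 FPKM at 5 DPA, 117, 138 and 127 at 10 DPA, 40.9, 41.1 and 30.1 at 15 DPA, 0.96, 0 and 0 at 20 DPA, and 3.49, 12.8 and 0.64 at 25 DPA. The 3 leaf libraries were listed at 0. The 10 DPA libraries lay above all others and the 15 DPA libraries above those of 5, 20 and 25 DPA, while 5 and 25 DPA overlapped. At 20 DPA its mean exceeded that of 34.1% of genes above 0, against 97.1% at 10 DPA. TuWPBF rose at 10 against 5 DPA by 3.30 ± 0.62 (log2, SE; limma adjusted p = 0.00054), which stayed called in all 24 alternative analyses and was 4.23 after scaling. Its log2 change at 15 against 10 DPA was -1.75 ± 0.62 (limma adjusted p = 0.061), not called, although the libraries did not overlap. Leaving out any 1 of the 25 DPA libraries, which enter only the estimate of spread, made it a call at the same -1.75. TuWPBF fell at 20 against 15 DPA, with a log2 change of -4.92 ± 0.62 (limma adjusted p = 0.00015) and of -4.06 after scaling, called in all 24 alternatives.

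TuSPA carries the name of the wheat storage protein activator, a bZIP protein of the Opaque2 type. Its levels were low: 0.32, 0.60 and 1.69 FPKM at 5 DPA, 17.9, 15.7 and 18.8 at 10 DPA, 5.45, 3.16 and 7.88 at 15 DPA, 0, 1.26 and 0 at 20 DPA, and 0.41, 6.22 and 1.04 at 25 DPA. All leaf libraries were listed at 0. The 10 DPA libraries were the highest, and those of 25 DPA overlapped with 5, 15 and 20 DPA. TuSPA rose at 10 against 5 DPA by 3.37 ± 0.55 (log2, SE; limma adjusted p = 0.00016), called in all 24 alternatives and 3.13 after scaling. At 20 against 15 DPA it fell, with a log2 change of -2.24 ± 0.55 (limma adjusted p = 0.0061), but the changes of -1.55 after scaling and -0.94 with a pseudocount of 5 were not called, and 2 of its 20 DPA libraries are at 0.

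TuOHP1, a bZIP gene named after the maize protein that forms heterodimers with Opaque2, ran otherwise. It stood at 44.0, 32.2 and 47.7 FPKM at 5 DPA, 10.4, 13.6 and 12.1 at 10 DPA, 6.61, 9.39 and 9.98 at 15 DPA, 0.89, 2.37 and 0.55 at 20 DPA, and 0.46, 10.1 and 8.85 at 25 DPA, and in leaf at 5.58, 13.3 and 13.6. The 5 DPA libraries were the highest, and leaf overlapped with 10, 15 and 25 DPA. TuOHP1 fell at 10 against 5 DPA, with a log2 change of -1.69 ± 0.63 (limma adjusted p = 0.037) and lay -0.45 from the median of all genes. The call was lost without any 1 of the 6 libraries compared, with changes of -1.85 to -1.58, and with a pseudocount of 0.1 (-1.76), and the change after scaling, -0.45, was not called. Within a library, TuSPA stood at 0.0073 to 0.0354 of the level of TuOHP1 at 5 DPA and at 1.15 to 1.71 of it at 10 DPA, so that TuOHP1 was the higher of these bZIP genes in every 5 DPA library and TuSPA in every 10 DPA library. At 15 DPA the ratio was 0.337 to 0.825.

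TuGAMYB, a MYB gene named for the gibberellin-regulated factor of cereal aleurone and endosperm, was likewise highest at 10 DPA. It stood at 12.1, 13.6 and 9.94 FPKM at 5 DPA, 41.6, 44.8 and 56.7 at 10 DPA, 31.8, 30.0 and 29.9 at 15 DPA, 1.73, 2.88 and 3.01 at 20 DPA, and 2.57, 27.0 and 29.3 at 25 DPA, against 1.21, 0.36 and 1.27 in leaf. The 10 DPA libraries were the highest, every leaf library was below every endosperm library, and of the 25 DPA libraries only library 1 lay among those of 20 DPA. TuGAMYB rose at 10 against 5 DPA by 1.92 ± 0.66 (log2, SE; limma adjusted p = 0.025). That call was lost without any 1 of the 5 DPA libraries or without library 2 or 3 of 10 DPA (1.79 to 2.01), with total FPKM scaling (1.54) and with a pseudocount of 0.1 (2.00, limma adjusted p = 0.08), and was made after median-ratio scaling, at 2.86. At 20 against 15 DPA it fell, with a log2 change of -3.18 ± 0.66 (limma adjusted p = 0.0028), yet the change after scaling was -0.73 and not called. From 5 to 25 DPA, median-ratio scaled levels averaged 2.69 ± 0.405, 25.9 ± 4.55, 28.2 ± 3.17, 16.6 ± 2.46 and 14.8 ± 1.62 (SD, n = 3 for each stage). On that scale library 1 of 25 DPA, at 14.5, lay between the other two, at 16.5 and 13.3.

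TuFUS3, namesake of the Arabidopsis B3 factor of seed maturation, was barely detected. It stood at 0.91, 1.26 and 1.44 FPKM at 5 DPA, 0.90, 0.85 and 1.37 at 10 DPA, and 0, 0.56 and 0 at 15 DPA, with 0 in each library of 20 DPA, 25 DPA and leaf. The 5 and 10 DPA libraries overlapped and lay above the rest. Its one called change was a fall at 25 against 5 DPA, with a change of -1.13 ± 0.22 on the log2(FPKM + 1) scale (limma adjusted p = 0.00027), which was not called with a pseudocount of 5 (-0.31) or after scaling (-0.35). TuFUS3 passed the filter on low values only through libraries of 5 and 10 DPA (1.26, 1.44 and 1.37 FPKM), so this call adds nothing to its levels.

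**Figure D1:**
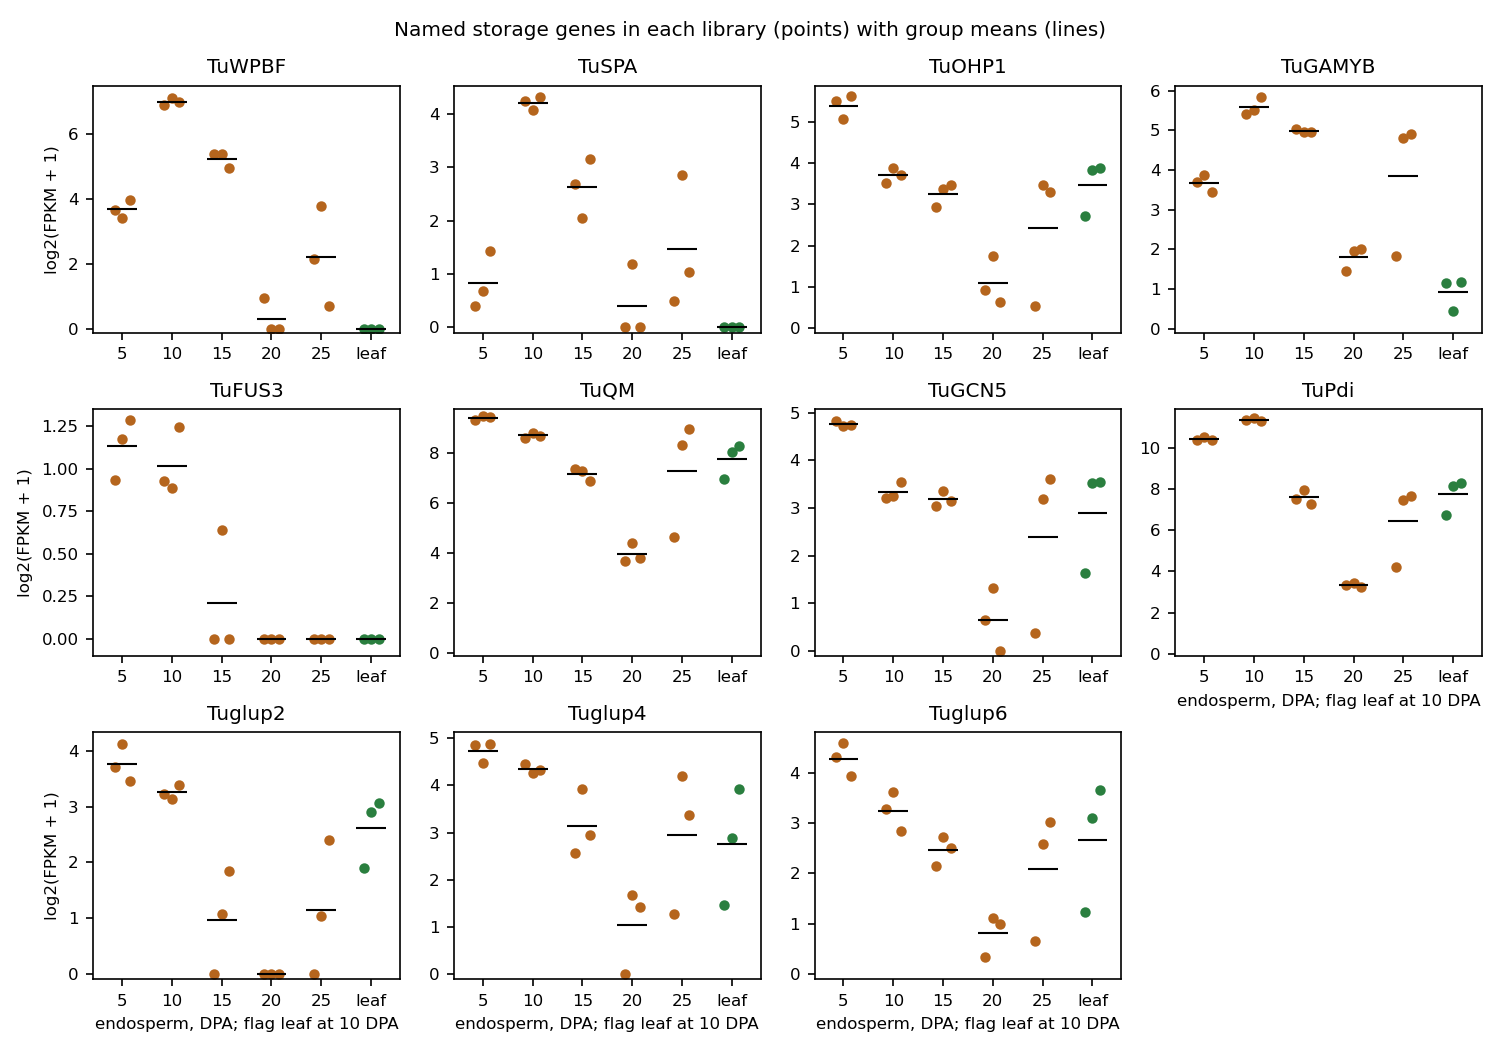
Level of each of the 11 genes, as log2(FPKM + 1), in the 3 libraries (points) of endosperm at 5, 10, 15, 20 and 25 DPA and of flag leaf at 10 DPA (green), with the group mean as a line. TuWPBF, TuSPA, TuGAMYB and TuPdi peak at 10 DPA, the other genes have their highest mean at 5 DPA, and library 1 of 25 DPA is the lowest of its group for 9 of the genes.

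TuQM is named for a wheat protein of the ribosomal L10 family that binds WPBF. It was abundant at every stage: 643, 702 and 696 FPKM at 5 DPA, 390, 444 and 410 at 10 DPA, 162, 156 and 116 at 15 DPA, 11.7, 19.9 and 12.9 at 20 DPA, and 23.8, 319 and 491 at 25 DPA, with 125, 259 and 306 in leaf. Its 5 DPA libraries were the highest and its 20 DPA libraries the lowest. Even at 20 DPA the mean exceeded that of 97.6% of genes above 0. TuQM fell at 20 against 15 DPA, with a log2 change of -3.22 ± 0.86 (limma adjusted p = 0.0091), but by scaled values the change was -0.44 and not called.

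TuGCN5 carries the name of a histone acetyltransferase, which in wheat is recruited by GAMYB. It stood at 27.5, 25.3 and 25.9 FPKM at 5 DPA, 8.26, 8.51 and 10.7 at 10 DPA, 7.25, 9.31 and 7.92 at 15 DPA, 0.57, 1.52 and 0 at 20 DPA, and 0.30, 8.07 and 11.2 at 25 DPA, with 2.11, 10.5 and 10.7 in leaf. The 5 DPA libraries alone stood clear of all others, and 10 DPA, 15 DPA and leaf overlapped. Its log2 change at 10 against 5 DPA was -1.43 ± 0.65 (limma adjusted p = 0.076), -0.20 relative to the median of all genes, whereas TuGAMYB stood 3.15 above that median. Without library 1 or 3 of 25 DPA, which enter only the estimate of spread, the same -1.43 was called (limma adjusted p = 0.00063 and 0.043), as it was with total FPKM scaling (-1.85), with a pseudocount of 5 (-1.14) and with the compared groups fitted alone.

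TuPdi, named for protein disulfide isomerase, was the most abundant of the 11 at 5, 10 and 15 DPA. It stood at 1360, 1478 and 1324 FPKM at 5 DPA, 2615, 2835 and 2558 at 10 DPA, 183, 248 and 156 at 15 DPA, 9.14, 9.69 and 8.36 at 20 DPA, and 17.8, 174 and 204 at 25 DPA, with 108, 287 and 311 in leaf. No 2 of the first 4 stages overlapped. The log2 change at 10 against 5 DPA, 0.94 ± 0.76 (limma adjusted p = 0.29), was not called as deposited but was 2.20 and called after scaling. TuPdi fell at 15 against 10 DPA, with a log2 change of -3.79 ± 0.76 (limma adjusted p = 0.0026), and again at 20 against 15 DPA, with -4.26 ± 0.76 (limma adjusted p = 0.0013). Both falls stayed called in all 24 alternatives, and after scaling the changes were -3.03 and -1.53. Within a library, TuPdi stood at 1.90 to 2.11 times the level of TuQM at 5 DPA, 6.24 to 6.70 times at 10 DPA and 1.13 to 1.59 times at 15 DPA. At 20 and 25 DPA TuQM was the higher in every library, with TuPdi at 0.415 to 0.778 of it.

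The Tuglup genes were of middle level and, as deposited, highest at 5 DPA. After scaling the highest stage mean was at 10 DPA for Tuglup2 and Tuglup4 and at 20 DPA for Tuglup6. Tuglup2, named for the rice GLUP2 gene, which encodes a GOT1B transport protein, stood at 12.1, 16.5 and 10.0 FPKM at 5 DPA, 8.36, 7.86 and 9.51 at 10 DPA, 0, 1.09 and 2.58 at 15 DPA, 0 throughout 20 DPA, and 0, 1.05 and 4.29 at 25 DPA, with 2.72, 6.51 and 7.34 in leaf. Its 5 and 10 DPA libraries lay above all others. It fell at 15 against 10 DPA, with a log2 change of -2.29 ± 0.53 (limma adjusted p = 0.0072) and of -1.59 after scaling, though not with a pseudocount of 0.1. Tuglup4, annotated as Rab5a, a small GTPase of vesicle traffic, stood at 21.1 to 28.4 FPKM at 5 DPA, 18.1 to 20.8 at 10 DPA, 4.89 to 14.2 at 15 DPA, 0 to 2.19 at 20 DPA, 1.43 to 17.4 at 25 DPA and 1.78 to 14.2 in leaf. Tuglup6, whose rice namesake activates Rab5a by exchanging its nucleotide, stood at 14.2 to 23.0, 6.17 to 11.2, 3.44 to 5.63, 0.27 to 1.16 and 0.57 to 7.07 FPKM over the 5 stages in order, and at 1.34 to 11.6 in leaf. For both genes 5 DPA did not overlap with 10 DPA, and leaf overlapped with 15 and 25 DPA.

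Across the 5 stages all 11 genes had a limma F-test adjusted p under 0.05, from 1.2e-06 for TuPdi to 0.00077 for Tuglup4, where 92.1% of all genes tested did. After median-ratio scaling the same test called 7 of the 11, against 52.3% of all genes. TuPdi, TuGAMYB, TuWPBF, TuQM, Tuglup2, TuFUS3 and TuSPA were called, and TuGCN5, TuOHP1, Tuglup4 and Tuglup6 were not. TuFUS3 is counted on both scales although it passed the filter only through libraries of 5 and 10 DPA. Over the alternatives that left out 1 library, 10 to 11 genes were called. Without library 2 or 3 of 5 DPA or library 3 of 10 DPA, TuFUS3 did not pass the filter, so 10 genes were tested there.

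At 10 against 5 DPA 3 of the 11 genes rose, TuWPBF, TuSPA and TuGAMYB, where 3.16% of all genes tested were called higher. TuOHP1 was the 1 gene called lower, where 45.6% of all genes were. The count of 4 was 2, TuWPBF and TuSPA, without any 1 of the 5 DPA libraries, without library 2 or 3 of 10 DPA, or with a pseudocount of 0.1. It was 6, with TuGCN5 and Tuglup6 also lower (-1.43 and -1.03), without library 1 of 25 DPA, without all libraries of that stage or with the compared groups fitted alone. In these settings, in order, 11588 of 19363, 11570 of 18870 and 11527 of 18249 genes were called lower. Where the count was 2, 429 to 532 of all genes were called higher and 3601 to 7054 lower. After scaling, 4 were called higher, with TuPdi added, against 4.86% of all genes, and limma called 0 lower (0 at an unadjusted p under 0.05), against 7.14%. At 15 against 10 DPA limma called 0 higher (0 at an unadjusted p under 0.05; 1.28% of all genes) and 2 lower, TuPdi and Tuglup2 (16.7% of all genes), and the same genes fell after scaling, where 6.77% of all genes did and 3.17% were called higher. Without library 1 of 25 DPA, 6 were called lower, TuWPBF, TuSPA, TuQM and Tuglup4 among them, and without library 2 or 3 of that stage 4 were, TuWPBF and TuSPA among them. Over all genes, 5910 of 19363 were called lower without library 1, 3422 of 19226 without library 2 and 3942 of 19157 without library 3. At 20 against 15 DPA 9 were called lower, all but TuFUS3 and Tuglup2, where 43.0% of all genes were, and 0 higher (0 at an unadjusted p under 0.05; 0.69% of all genes). Some calls rested on single libraries: that of Tuglup4 was lost without library 2 of 15 DPA or library 1 of 20 DPA (-1.72 and -1.59), that of Tuglup6 without library 2 or 3 of 15 DPA or library 1 of 20 DPA (-1.51, -1.62 and -1.41), and that of TuOHP1 without library 3 of 20 DPA (-1.92). After scaling TuPdi and TuWPBF were the only 2 called lower, against 11.3% of all genes, and 0 were called higher (0 at an unadjusted p under 0.05), against 3.8%.

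At 25 against 20 DPA 6 genes were called higher, TuGAMYB, TuGCN5, Tuglup4, TuPdi, TuQM and TuWPBF, where 35.3% of all genes were, and 0 lower (0 at an unadjusted p under 0.05; 0.154% of all genes). The largest log2 changes were 3.35 ± 0.86 for TuQM and 3.13 ± 0.76 for TuPdi (limma adjusted p = 0.015 and 0.014). None held after scaling, when limma called 0 genes (2 higher and 0 lower at an unadjusted p under 0.05), against 6.46% of all genes called higher and 2.73% lower. The count rested on single libraries: it was 10 without library 1 of 25 DPA, 0 without library 2 and 1 without library 3, and 1, 3 and 2 without libraries 1, 2 and 3 of 20 DPA. The whole table moved likewise, from 6846 of 19418 genes called higher with all libraries. It gave 11419 of 19363 without library 1 of 25 DPA, 217 of 19226 without library 2 and 584 of 19157 without library 3. Without libraries 1, 2 and 3 of 20 DPA, 1364, 4219 and 2273 genes were called higher. For TuGAMYB the scaled change, -0.16, had the opposite sign.

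At 25 against 5 DPA 9 genes were called lower, all but TuGAMYB and TuSPA, where 72.0% of all genes were. Limma called 0 higher (0 at an unadjusted p under 0.05), against 3.6% of all genes. TuFUS3 is among the 9, although it passed the filter on low values only through libraries of earlier stages. It was at 0 in every 25 DPA library, so its call adds nothing to its levels. The count of 9 is therefore not read against the share of 72.0%. After scaling TuPdi, Tuglup2 and TuOHP1 remained lower, at -1.65, -1.19 and -1.02, against 22.6% of all genes, and TuGAMYB was called higher, at 2.10, against 7.93%. As deposited TuGAMYB changed by 0.18 ± 0.66 (limma adjusted p = 0.81); without library 1 of 25 DPA it was called higher, at 1.19, and without library 2 or 3 the change was -0.30 or -0.36. The call of TuQM as lower (-2.11 ± 0.86) was lost without library 1 of 25 DPA, at -0.78, or without any 1 of the 5 DPA libraries, and that of Tuglup4 (-1.78 ± 0.66) without library 1 of 25 DPA, at -0.95, or without library 1 or 3 of 5 DPA. The count was 5 without library 3 of 5 DPA, where 12169 of 18036 genes were called lower. The call of TuWPBF as lower (-1.47 ± 0.62, limma adjusted p = 0.041) was lost in 12 of the 15 analyses that left out 1 library, and the scaled change, 0.73, had the opposite sign.

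**Figure D2:**
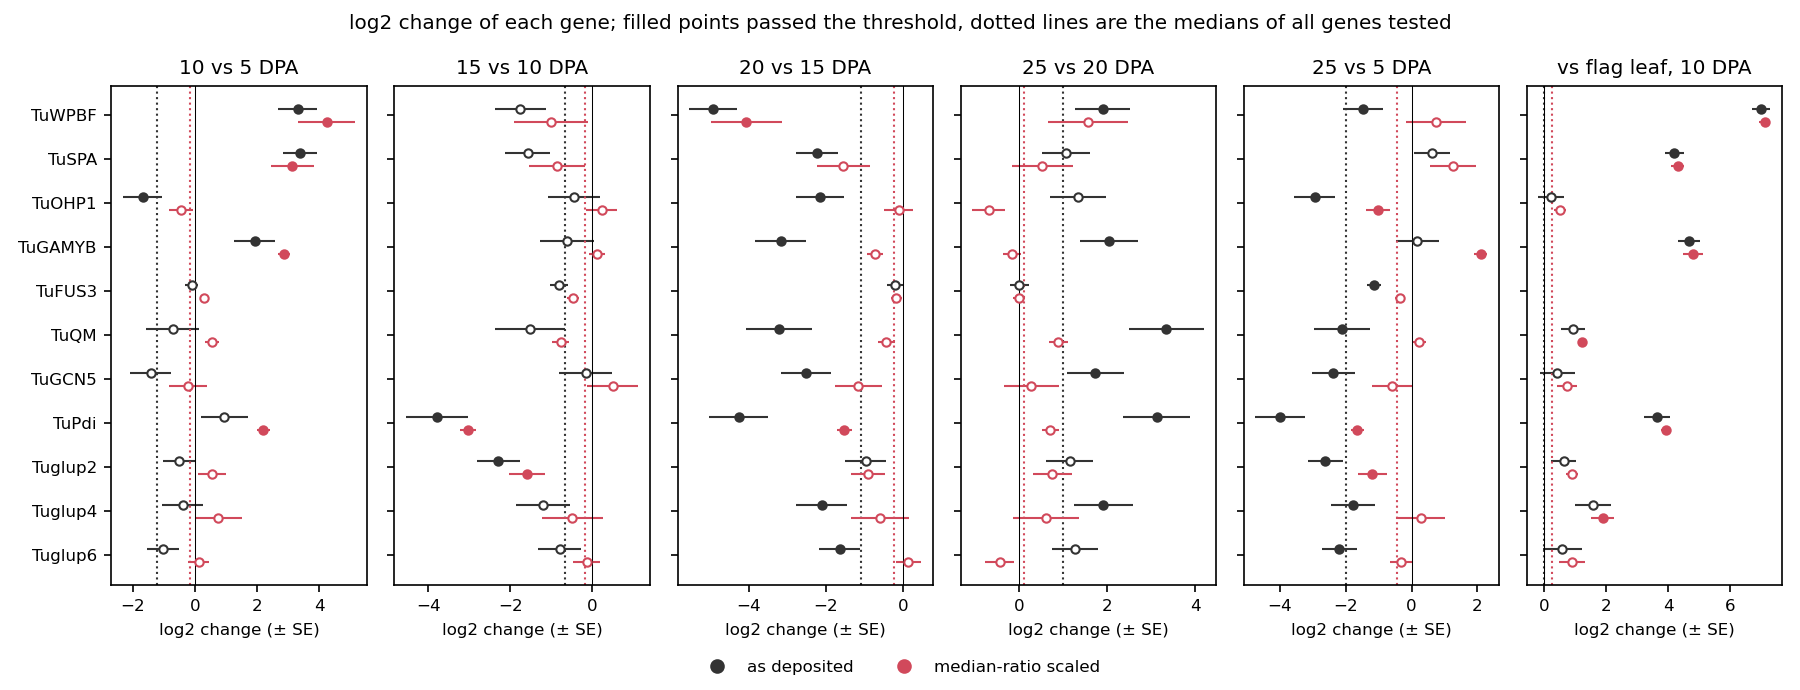
Log2 change (± SE) of each gene in the 5 stage contrasts and in endosperm against flag leaf at 10 DPA, as deposited (dark) and after median-ratio scaling (red); filled points were called, and dotted lines mark the medians of all genes tested. TuWPBF, TuSPA and TuGAMYB are right of the median at 10 against 5 DPA on both scales, while scaling brings most points of the 20 against 15 and 25 against 20 DPA panels towards 0.

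At 10 DPA endosperm exceeded flag leaf for TuGAMYB and TuPdi, and TuWPBF and TuSPA were called as well, making 4 of the 10 genes tested, where 21.7% of all genes were called higher. TuWPBF and TuSPA passed the filter on low values only through their endosperm libraries, so their calls add nothing to their levels, and the count of 4 is not read against that share. TuGAMYB averaged 47.7 ± 7.97 FPKM in endosperm and 0.947 ± 0.509 in leaf (SD, n = 3 each), a log2 change of 4.67 ± 0.36 (limma adjusted p = 3.6e-05). TuPdi averaged 2669 ± 146 FPKM in endosperm and 235 ± 111 in leaf, a log2 change of 3.64 ± 0.43 (limma adjusted p = 0.00028). TuWPBF and TuSPA, at 117 to 138 and 15.7 to 18.8 FPKM in endosperm, were listed at 0 in each leaf library, so no fold is given. All 4 were called in every alternative in which they were tested; without any 1 of the endosperm libraries TuWPBF and TuSPA no longer passed the filter, so 2 were called. Limma called 0 of the genes lower (0 at an unadjusted p under 0.05), where 27.1% of all genes were. After scaling TuQM (1.24) and Tuglup4 (1.89) were also higher, against 28.6% of all genes (both also without leaf library 3, at 1.20 and 2.16), while 25.9% of all genes were lower. For TuGCN5, TuOHP1 and Tuglup6 the sign as deposited rested on leaf library 1, the shallowest: without it their changes were -0.20, -0.15 and -0.13, against 0.43, 0.22 and 0.59 with it. That library also differed in composition, with 14533 genes above 0 against 17429 and 17866 in leaf libraries 2 and 3. After scaling, with all libraries, the changes were 0.73, 0.51 and 0.90, not called. Whether depth or composition had a part was not tested.

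Set against the storage proteins, TuWPBF, TuSPA and TuPdi had their highest stage mean at 10 DPA, while the summed prolamins had theirs at 15 DPA. The summed gliadins and glutenins averaged 105 ± 64.5, 315766 ± 3243, 418756 ± 15457, 36688 ± 7596 and 91739 ± 115217 FPKM over the 5 stages in order (SD, n = 3 for each). Their highest members by class were Gli-γ-1, the low molecular weight glutenin TuA3-538a and the high molecular weight glutenin TuGlu-1Ax, which rose at 10 against 5 DPA by log2 changes of 12.23, 11.01 and 10.15. At 15 against 10 DPA their changes of 0.79, 0.46 and 0.93 were not called. After scaling, the prolamin sum at 10, 15, 20 and 25 DPA was 44.3%, 100%, 63.2% and 20.0% of its highest stage. For TuGAMYB the same shares were 92.0%, 100%, 59.1% and 52.5%. For TuWPBF they were 100%, 49.5%, 3.98% and 13.4%, and for TuPdi 100%, 12.3%, 4.25% and 6.89%. At 20 DPA the single libraries of TuWPBF stood at 8.24, 0 and 0 scaled FPKM, each below all 15 DPA libraries (29.0 to 39.9). As deposited, the prolamins too were low at 20 DPA, at 8.76% of their peak.

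**Figure D3:**
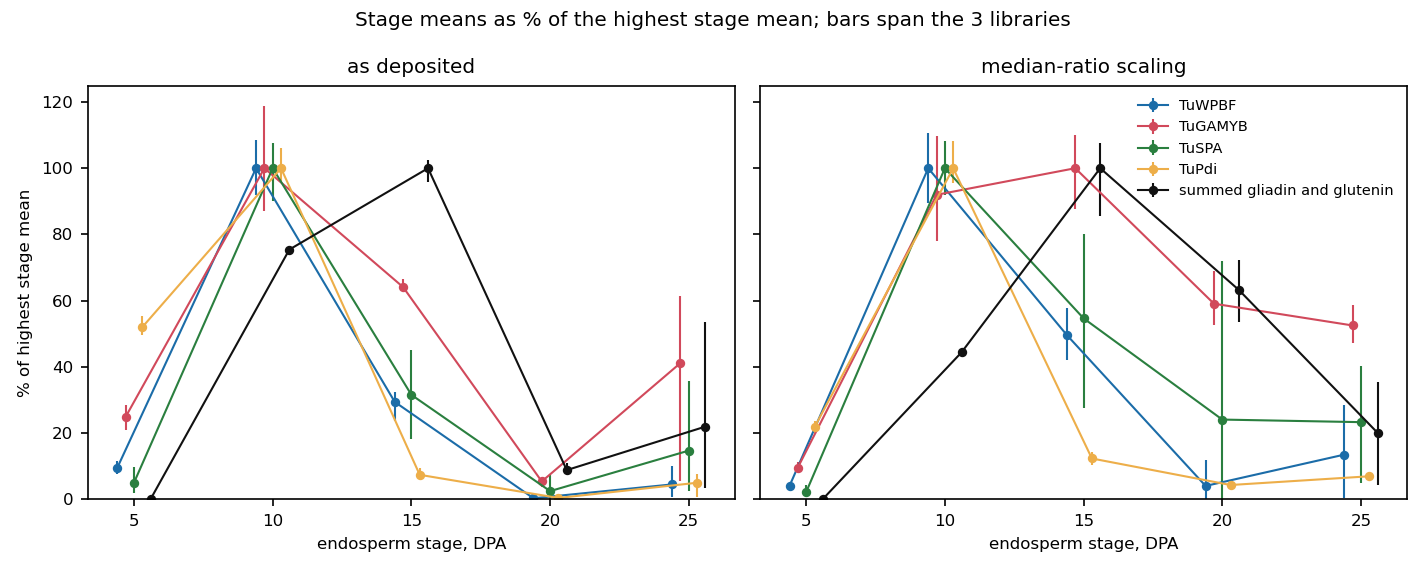
Stage means of TuWPBF, TuGAMYB, TuSPA, TuPdi and the summed gliadin and glutenin genes, as % of the highest stage mean, against endosperm stage in DPA; bars span the 3 libraries, left as deposited, right after median-ratio scaling. In both panels, TuWPBF, TuSPA and TuPdi peak at 10 DPA and the prolamins at 15 DPA; TuGAMYB peaks at 10 DPA as deposited and at 15 DPA after scaling.

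The log2 ratio of each gene to the prolamin sum, with 1 FPKM added to both, differed over the 5 stages for all 11 genes (exact permutation test of the F statistic, upper tail, p = 7.1e-07 to 0.00034; 11 ratios with 1 shared denominator). These tests are dominated by 5 DPA, where prolamins were nearly absent: TuPdi and TuQM stood 3.93 ± 1.00 and 2.91 ± 0.98 above the prolamin sum there on the log2 scale. The shared sum rose from a mean of 105 FPKM at 5 DPA to 315766 at 10 DPA, which sets a difference for any gene without a like rise. The tests were not run over all genes, so nothing particular to the 11 is read from them. The added 1 FPKM also sets the ratio of genes at or near 0 at 20 DPA, so from 10 DPA on the ratio is given with nothing added, as gene FPKM per 1000000 FPKM of summed prolamins. Such a ratio does not depend on the scaling of the library.

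TuWPBF stood at 375, 437 and 397 per 1000000 prolamin FPKM at 10 DPA, 96.0, 102 and 70.1 at 15 DPA, 29.5, 0 and 0 at 20 DPA, and 253, 57.1 and 17.1 at 25 DPA. No libraries of 10, 15 and 20 DPA overlapped, and each later stage of these lay below the one before. TuPdi stood at 8370, 8973 and 8019 per 1000000 at 10 DPA, 430, 618 and 364 at 15 DPA, 281, 213 and 261 at 20 DPA, and 1293, 775 and 5457 at 25 DPA, again with no overlap among the first 3 of these stages. Over the means, the ratio at 20 DPA was 0.0244 times that at 10 DPA for TuWPBF and 0.0298 times for TuPdi. TuGAMYB stood at 133, 142 and 178 by this measure at 10 DPA, 74.5, 74.7 and 69.7 at 15 DPA, 53.2, 63.4 and 93.9 at 20 DPA, and 186, 120 and 785 at 25 DPA, so that its 15 and 20 DPA libraries overlapped. TuSPA stood at 49.8 to 58.8 by this measure at 10 DPA, 7.88 to 18.4 at 15 DPA, 0, 27.7 and 0 at 20 DPA, and 27.8 to 29.7 at 25 DPA. The ratio at 15 against 10 DPA was lower for all 11 genes, without overlap. At 20 against 15 DPA the libraries overlapped for every gene other than TuWPBF and TuPdi. The prolamin sum shared by these ratios rose from a mean of 315766 FPKM at 10 DPA to 418756 at 15 DPA. The share over all genes was not computed, so neither count is read as particular to these genes.

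A test of the ratio with nothing added over 10 to 25 DPA, chosen after the data were seen, was possible for the 5 genes above 0 in each of these libraries. The 5 ratios share 1 denominator, which stood at 13785, 224083 and 37351 FPKM in the 25 DPA libraries. The test was not run over all genes, so nothing particular to these 5 is read from it. It gave a difference between stages for TuPdi (exact permutation p = 6.5e-05, the smallest the design allows; adjusted 0.00032), TuQM (exact permutation p = 0.00032; adjusted 0.00081) and TuGAMYB (exact permutation p = 0.011; adjusted 0.018). For Tuglup6 and TuOHP1 it did not (exact permutation p = 0.067 and 0.11; adjusted 0.084 and 0.11).

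Within libraries, TuWPBF stood at 0.720 to 1.49 times the level of TuGAMYB at 5 DPA, 2.23 to 3.08 times at 10 DPA and 1.01 to 1.37 times at 15 DPA. At 20 DPA library 1 gave 0.555 and libraries 2 and 3 had no TuWPBF. At 25 DPA the 3 libraries gave 1.36, 0.475 and 0.0218, so library 3 held TuGAMYB almost without TuWPBF.

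**Figure D4:**
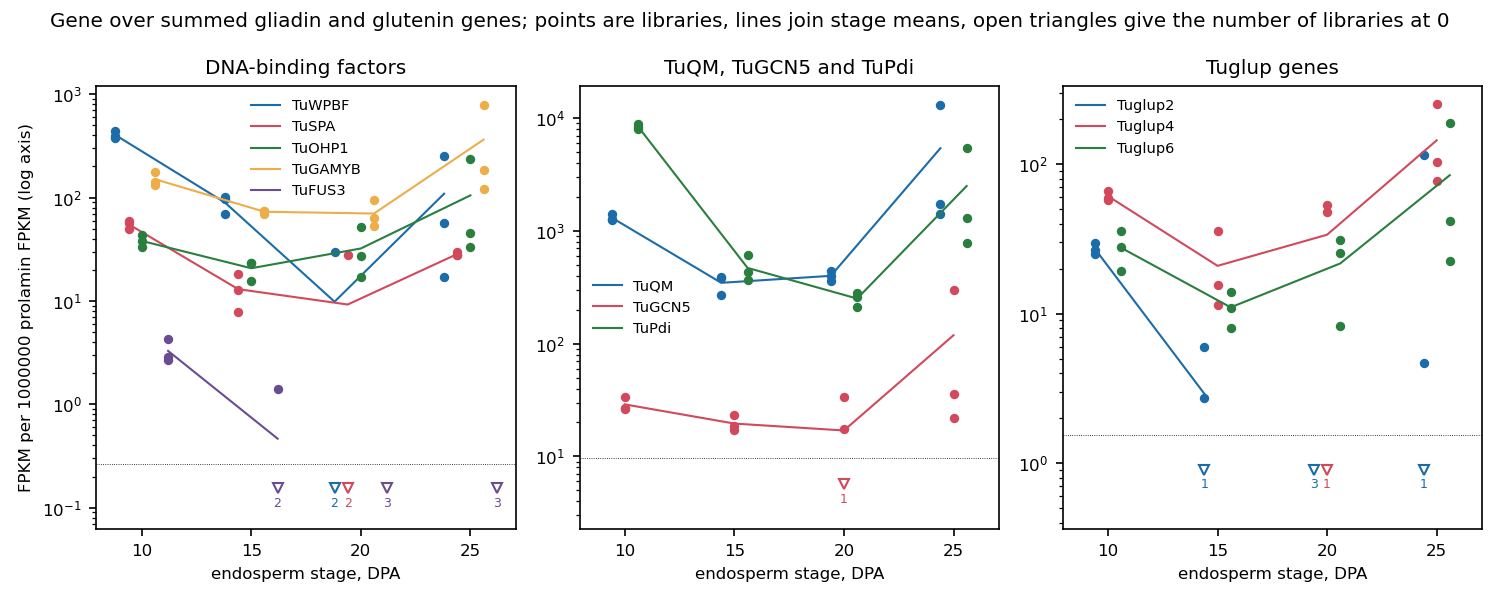
FPKM of each gene per 1000000 FPKM of the summed gliadin and glutenin genes (log axis) in each endosperm library (points) at 10, 15, 20 and 25 DPA, with lines joining stage means; open triangles below the dotted line give the number of libraries at 0. TuWPBF and TuPdi are lower at 20 than at 15 DPA without overlap, TuGAMYB is at 69.7 to 74.7 at 15 DPA and 53.2 to 93.9 at 20 DPA, and libraries scatter widely at 25 DPA for most genes.

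Pattern likeness was measured by Pearson's r of log2(FPKM + 1) over the 15 endosperm libraries, among the 467 annotated genes that averaged 10 FPKM or more in some stage. These libraries share 5 stages and the composition change, so r is a description. The genes most like TuWPBF were TuPUL (0.99), TuGBSSI (0.98) and TuSBEIIb (0.96), annotated as starch synthesis genes; after scaling they were TuAGPS-cyto (0.94), the NF-YA gene TRIUR3_22025 (0.93) and TuPUL (0.92). Those most like TuGAMYB were the ERF gene TRIUR3_34295 (0.98), the homeobox gene TRIUR3_24308 (0.95) and the bZIP gene TRIUR3_29638 (0.91), but after scaling the NAC gene TRIUR3_11787 (0.98) and the gliadin genes Gli-α-5 (0.98) and Gli-α-13 (0.97). For TuSPA they were the NF-YC gene TRIUR3_29815 (0.93), TRIUR3_24308 (0.91) and TuSBEIIb (0.91). For TuPdi they were the CPP gene TRIUR3_10153, the ERF gene TRIUR3_18522 and the starch gene TuSSI (all 0.98). After scaling 2 of the 3 remained for TuSPA, TRIUR3_24308 (0.87) and TuSBEIIb (0.84), and 1 for TuPdi, TRIUR3_18522 (0.95). TuOHP1 and TuGCN5 were each among the 3 genes most like the other as deposited, at 0.98, but not after scaling, at 0.73.

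The named factors can be set beside the rest of their families, whose named genes are the furthest called among those averaging 10 FPKM or more at 5 or 10 DPA. At 10 against 5 DPA, 3.16% of all genes tested were called higher and 45.6% lower. Of 6 other Dof genes tested 3 fell, TRIUR3_32855 (-1.08) being the 1 at that level, and the rest were not called. Of 99 MYB and MYB-related genes 10 rose and 43 fell, between TRIUR3_20797 (2.86) and TRIUR3_18702 (-4.11). Of 58 bZIP genes 7 rose and 20 fell, between TRIUR3_31111 (3.60) and TRIUR3_22435 (-3.36). Of 43 B3 genes 1 rose, TRIUR3_22986 (2.93), and 29 fell, TRIUR3_02309 (-4.93) named by the same rule. Of 58 NAC genes, a family with endosperm members that regulate storage proteins in cereals, 12 rose and 23 fell, between TRIUR3_25136 (7.04) and TRIUR3_14542 (-3.97). Family medians were -0.90, -1.15, -0.90, -1.39 and -1.08, against -1.23 for all genes and against 3.30, 1.92 and 3.37 for TuWPBF, TuGAMYB and TuSPA. TuOHP1, the other named bZIP gene, changed by -1.69, below the bZIP median, and TuFUS3, namesake of a B3 factor, by -0.11, not called. After scaling, the Dof genes were not called in either direction, and 6 MYB and MYB-related genes rose and 10 fell. On that scale 9 bZIP rose and 4 fell, 2 B3 rose and 5 fell, and 15 NAC rose and 6 fell. Over all genes tested, 4.86% were called higher and 7.14% lower on that scale.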

How the data were processed

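The authors' deposited table gives FPKM per gene for 18 libraries in 6 groups of 3; per the submitters' processing notes, Bowtie 0.12.2 was used. The sources used here do not name a genome build, an annotation or a counting program. The 11 genes and the lists were chosen with earlier results of these data known. Log2(FPKM + 1) was fitted with limma 3.58.1 (R 4.3.3, trended variances) for genes that reached 1 FPKM in 3 or more libraries: 19418 genes over 15 endosperm libraries and 16709 over the 6 libraries of 10 DPA endosperm and leaf. Calls needed a Benjamini-Hochberg adjusted p under 0.05 and a log2 change of at least 1. Within-library ratios were tested by an exact permutation test over all 1401400 partitions (15400 for the 4 later stages). Python 3.11.15 with numpy 2.4.6 and pandas 2.3.3 was used.

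All 11 genes are named. Beside them the text names the 3 annotated genes most like each gene, the prolamin with the highest mean in each class, and in each family the called gene with the largest rise and fall at 10 against 5 DPA averaging 10 FPKM or more in either group. Likeness is printed for the genes the results turn on. Of the table's identifiers 0 matched the reference gene table, so positions and sequences were not used here. Genes whose values are identical to those of another gene were looked for, and 0 of the 11 have such a copy, but reads shared between related genes cannot be told apart. No batch could be compared, since all sample descriptions name the same lane; some titles, the leaf ones among them, carry a suffix whose meaning is not given. The settings varied were the pseudocount (0.1 or 5) and the filter (none or 5 FPKM), along with median-ratio and total FPKM scaling, variances without a trend, fits of the compared groups alone, gliadin or glutenin genes alone as denominator, and leaving out each library. Fits without the 25 DPA libraries and ratios from 10 DPA on, also with nothing added, were added after the data were seen.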

Additional observations from a re-analysis of the deposited data

How the results depend on the processing

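Under median-ratio scaling the counts of called genes were 2 at 20 against 15 DPA (9 as deposited), 0 at 25 against 20 (6), 4 at 25 against 5 (9) and 7 in the F-test over stages (11). The highest stage mean moved under this scaling from 5 to 10 DPA for TuFUS3, TuQM, Tuglup2 and Tuglup4. It moved from 5 to 15 DPA for TuGCN5, from 5 to 20 DPA for Tuglup6 and from 10 to 15 DPA for TuGAMYB. Signs turned under median-ratio scaling for uncalled values at 10 against 5 DPA (TuFUS3 0.29, Tuglup2 0.54, Tuglup4 0.75, Tuglup6 0.12, TuQM 0.54) and at 15 against 10 (TuGAMYB 0.12, TuGCN5 0.51, TuOHP1 0.24), and further for Tuglup6 at 20 against 15 (0.14), TuGAMYB, Tuglup6 and TuOHP1 at 25 against 20 (-0.16, -0.44, -0.69), and Tuglup4, TuQM and TuWPBF at 25 against 5 (0.27, 0.22, 0.73). Total FPKM scaling turned TuGAMYB at 25 against 5 DPA (-0.49). A pseudocount of 0.1 gave 2 calls at 10 against 5 DPA, both higher, where 4 were made with 1. Of 19418 genes 429 were then called higher and 3601 lower. A pseudocount of 5 gave 4 at 15 against 10 (2), where 2016 of 19418 genes were called lower. At 25 against 20 it gave 3 (6), where 3878 of 19418 were called higher. Fitting the compared groups alone gave 6 of 10 tested at 15 against 10, where 5682 of 14649 genes were called lower. At 25 against 20 it gave 0 of 8 tested, where 28 of 7581 genes were called higher and 1 lower. At 25 against 5 it gave 5 of 10 tested, where 10981 of 18100 genes were called lower. Leaving out all 25 DPA libraries, added later, gave 6 at 15 against 10, where 6008 of 18870 genes were called lower. With nothing added to the ratio from 10 DPA on, 3 genes differed between stages of the 5 that could be tested. With 1 FPKM added, 11 of 11 differed over 5 stages and also over 10 to 25 DPA (exact permutation test, adjusted p up to 0.00034 and 0.031). The causes were not tested. Leaving out 1 library gave 2 to 6 calls at 10 against 5, 2 to 6 at 15 against 10, 7 to 9 at 20 against 15, 0 to 10 at 25 against 20, 5 to 9 at 25 against 5, 2 to 6 against leaf, 10 to 11 in the F-test and 11 of 11 for the ratios. Calls over all genes moved too, from 217 to 11419 higher at 25 against 20 DPA. The ratios were not tested over all genes, so their count is not read as particular to these genes. At 25 against 5 DPA leaving out 1 library turned signs, with ranges of -0.36 to 1.19 for TuGAMYB and -0.073 to 1.11 for TuSPA (-0.30 without library 2 of 25 DPA for TuGAMYB). Against leaf the ranges were -0.20 to 0.76 for TuGCN5, -0.15 to 0.42 for TuOHP1 and -0.13 to 1.08 for Tuglup6. No paired analysis was possible because the table's columns carry no replicate numbers tied to the sample titles. Low FPKM limits TuFUS3, TuSPA and Tuglup2, and 3 libraries a group limit all tests.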
